A study of Homo sapiens with 4 samples.

Results

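The 9 genes described here encode the VHL ubiquitin ligase (VHL, ELOB, ELOC, CUL2 and RBX1) and the oxygen-dependent hydroxylases of HIF alpha (EGLN1, EGLN2, EGLN3 and HIF1AN). They were taken as a pathway by name, 9 of the 20033 protein-coding genes of the RefSeq table for GRCh38, and each locus was the gene's RefSeq span with 25 kb added on both sides. Together the loci cover 0.754 Mb and hold 42 of the 53572 accessible regions found in the series. The cells were 786-O, a human line from a clear cell renal carcinoma in which VHL is not functional. Cells in the treated group received 5 µM ACSS2i, the compound directed at the acetyl-CoA synthetase ACSS2, for 24 h, and cells in the control group received an equal volume of DMSO for 24 h. Accessible chromatin was mapped in 2 libraries per group by ATAC-seq, in which the transposase Tn5 cuts and tags open DNA. The series concerns ACSS2, the degradation of HIF-2α and the ligase MUL1, and ATAC-seq was used to find accessible sites that change with the compound.

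HIF alpha subunits are made continuously and removed when oxygen is present. The EGLN enzymes, also called PHDs, hydroxylate prolines of HIF alpha, and the hydroxylated protein is bound by VHL, the substrate receptor of a ligase in which Elongin B and Elongin C (ELOB, ELOC) connect VHL to the cullin CUL2 and RBX1 recruits the ubiquitin-conjugating enzyme. HIF1AN (FIH) hydroxylates an asparagine of HIF alpha and so limits its binding to coactivators. In clear cell renal carcinoma, VHL is the gene most often inactivated, and HIF-2α accumulates. An accessible gene start is neither a measure of the protein nor of an intact coding sequence, so peaks at VHL say nothing of its function in this line.

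The 4 lists of peaks differed in length before any locus was considered. They held 16400 and 22044 peaks in ACSS2i replicates 1 and 2, against 34696 and 50294 peaks in DMSO replicates 1 and 2. Genome background coverage, worked out from each list's fold and p-values, ran the other way, at 2.32 and 3.16 fragments per position in ACSS2i libraries and 2.06 and 1.75 fragments per position in DMSO libraries. The median fold of a peak, its summit set against the local background of the same library, was 4.65 and 4.30 in ACSS2i lists and 5.35 and 6.65 in DMSO lists. The part of these library-wide values in any single locus was not tested. With bulk nuclei, fewer cells with an open site, less opening per cell and a difference in library quality cannot be told apart. Among 14 markers of a renal carcinoma line of tubule origin, 6 and 10 had a gene-end peak in the ACSS2i lists and 10 and 10 in the DMSO lists, while PAX2, CA9, NNMT and CP had none in any list. Of 6 endothelial markers, 0 had a gene-end peak in any list, and of 9 immune markers 1 and 1 had one in the ACSS2i lists and 1 and 3 in the DMSO lists. Of 6 neuronal and muscle markers, 0 and 1 had one in the ACSS2i lists and 2 and 2 in the DMSO lists. Over all 20033 protein-coding genes, the shares were 32.5% and 40.7% in the ACSS2i lists and 52.6% and 60% in the DMSO lists.

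A gene-end peak was a peak within 1000 bp of either end of the gene's span. Such a peak was present for 4 and 7 of the 9 genes in the ACSS2i lists, against 9 and 9 in the DMSO lists, where the shares over all 20033 protein-coding genes were 32.5% and 40.7% in the ACSS2i lists and 52.6% and 60% in the DMSO lists. In the ACSS2i lists the genes fell into 3 patterns: ELOC, CUL2, RBX1 and EGLN1 had a gene-end peak in both, VHL, EGLN3 and HIF1AN had one in ACSS2i replicate 2 alone, and ELOB and EGLN2 had none. Thus 2 of 9 genes were unlisted in both ACSS2i libraries, where the share over the 10468 protein-coding genes found in both DMSO lists was 18.9%. In the same background, 58% had a gene-end peak in all 4 lists, 19.2% in ACSS2i replicate 2 alone of the ACSS2i lists, and 3.92% in ACSS2i replicate 1 alone, beside 4, 3 and 0 of the 9 genes. The share with a gene-end peak was thus above that of all genes in each list, by the least in ACSS2i replicate 1, whereas the split of the 9 genes among the ACSS2i patterns was near that of the genes found in both DMSO lists. The count of 2 rests on ACSS2i replicate 2: without it, 5 of 9 genes (VHL, ELOB, EGLN2, EGLN3 and HIF1AN) had no ACSS2i gene-end peak, where the background was 38.1%.

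**Figure D1:**
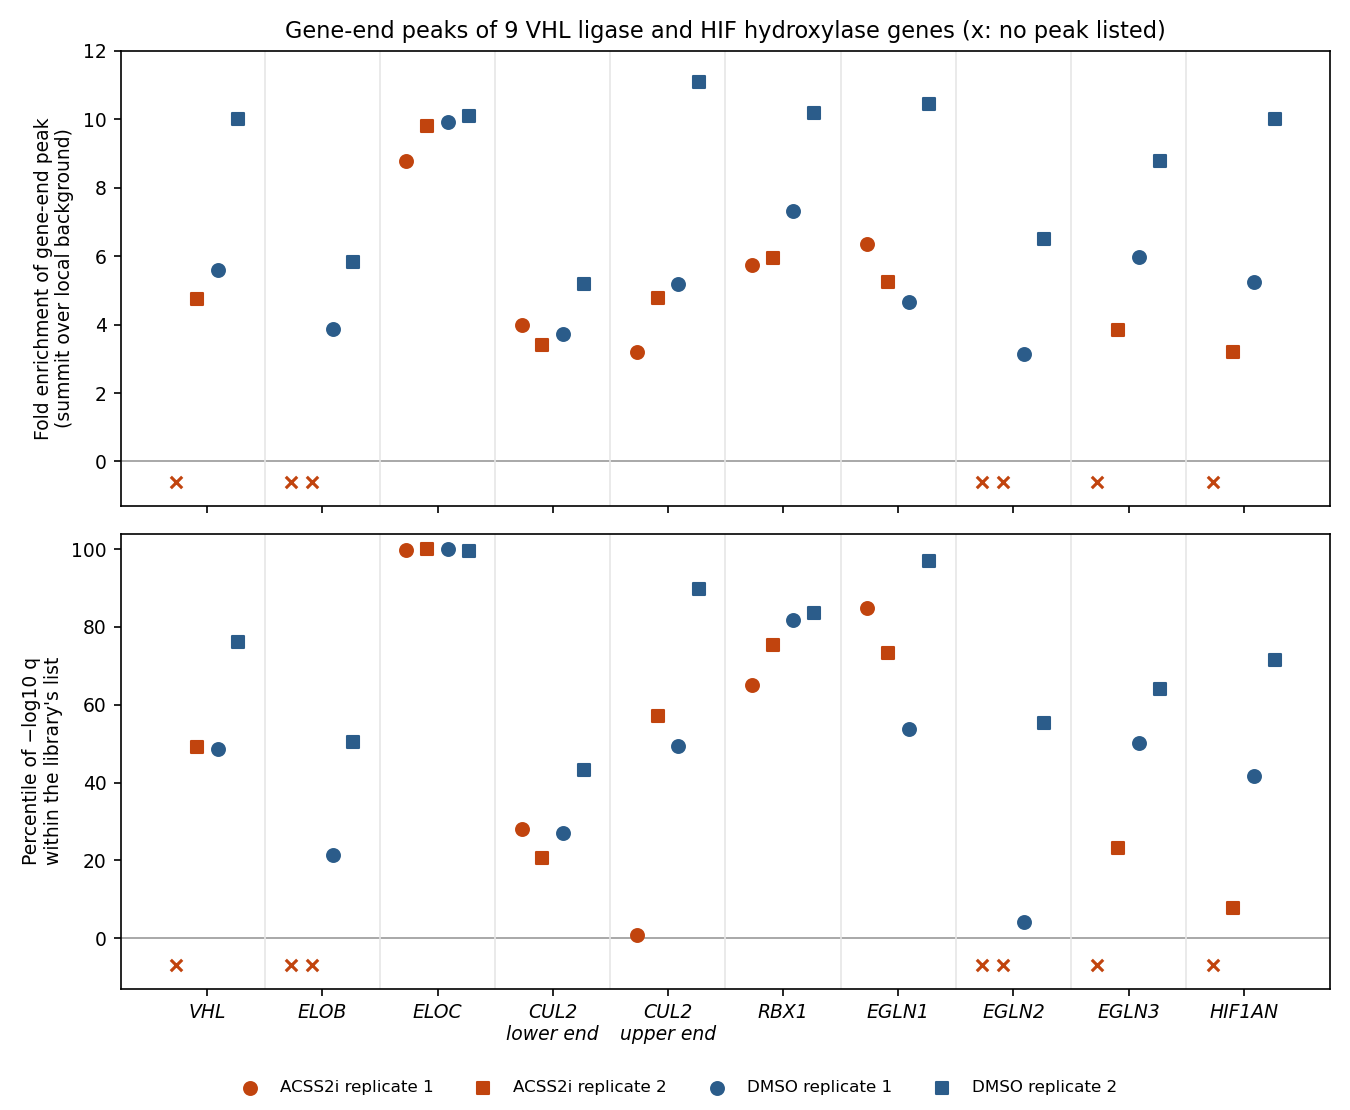
Fold enrichment (top) and percentile of −log10 q within the library's own list (bottom) of the gene-end peak of each gene, with both ends of CUL2 drawn apart; each point is 1 library, and a cross below 0 marks a list with no such peak. All crosses belong to ACSS2i libraries, and ELOC lies above the 99th percentile in all 4 lists.

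Sequence around the starts is shown for the 6 genes whose listed start lies in a gene-end region, because they carry the range of outcomes: RBX1 and EGLN1 in all 4 lists, EGLN3 and HIF1AN in 3, and ELOB and EGLN2 in the DMSO lists alone. Each sequence runs 5′ to 3′ on the gene's strand, from 250 bases before to 50 bases after the start, as given by RefSeq for GRCh38.p14. Capitals mark ACGTG or GCGTG, the core of the hypoxia response element bound by HIF, and ATGGCGGC, a word chosen after these sequences were seen, each on either strand. The windows are RBX1 at chr22:40951128-40951427 (plus strand), EGLN1 at chr1:231422238-231422537 (minus strand), EGLN3 at chr14:33951025-33951324 (minus strand), HIF1AN at chr10:100535693-100535992 (plus strand), ELOB at chr16:2777231-2777530 (minus strand) and EGLN2 at chr19:40798941-40799240 (plus strand).
RBX1: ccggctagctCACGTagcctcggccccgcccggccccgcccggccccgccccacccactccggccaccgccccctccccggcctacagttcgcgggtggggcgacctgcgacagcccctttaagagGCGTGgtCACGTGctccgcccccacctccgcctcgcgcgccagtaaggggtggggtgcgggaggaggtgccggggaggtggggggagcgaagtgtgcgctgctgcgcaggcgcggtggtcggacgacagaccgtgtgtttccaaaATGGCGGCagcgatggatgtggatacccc
EGLN1: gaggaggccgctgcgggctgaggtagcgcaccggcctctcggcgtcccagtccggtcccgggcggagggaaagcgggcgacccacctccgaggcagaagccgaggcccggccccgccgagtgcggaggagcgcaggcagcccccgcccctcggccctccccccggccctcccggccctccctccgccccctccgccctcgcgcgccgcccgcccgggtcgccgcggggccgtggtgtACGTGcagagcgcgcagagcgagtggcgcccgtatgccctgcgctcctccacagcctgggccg
EGLN3: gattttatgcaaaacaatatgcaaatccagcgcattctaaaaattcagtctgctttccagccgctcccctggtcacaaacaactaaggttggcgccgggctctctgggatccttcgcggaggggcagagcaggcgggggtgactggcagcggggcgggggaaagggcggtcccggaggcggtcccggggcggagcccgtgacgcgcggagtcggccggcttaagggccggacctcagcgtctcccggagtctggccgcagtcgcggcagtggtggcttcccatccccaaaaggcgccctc
HIF1AN: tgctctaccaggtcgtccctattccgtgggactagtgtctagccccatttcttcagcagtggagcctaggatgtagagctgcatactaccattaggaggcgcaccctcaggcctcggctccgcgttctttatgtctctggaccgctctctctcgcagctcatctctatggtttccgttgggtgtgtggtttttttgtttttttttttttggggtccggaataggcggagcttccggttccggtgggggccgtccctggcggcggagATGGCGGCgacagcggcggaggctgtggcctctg
ELOB: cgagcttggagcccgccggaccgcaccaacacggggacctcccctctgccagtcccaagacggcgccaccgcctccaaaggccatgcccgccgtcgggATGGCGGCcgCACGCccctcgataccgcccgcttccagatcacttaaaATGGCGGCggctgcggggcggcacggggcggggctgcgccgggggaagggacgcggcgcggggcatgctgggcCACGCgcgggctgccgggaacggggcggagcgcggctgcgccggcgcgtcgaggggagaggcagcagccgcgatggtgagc
EGLN2: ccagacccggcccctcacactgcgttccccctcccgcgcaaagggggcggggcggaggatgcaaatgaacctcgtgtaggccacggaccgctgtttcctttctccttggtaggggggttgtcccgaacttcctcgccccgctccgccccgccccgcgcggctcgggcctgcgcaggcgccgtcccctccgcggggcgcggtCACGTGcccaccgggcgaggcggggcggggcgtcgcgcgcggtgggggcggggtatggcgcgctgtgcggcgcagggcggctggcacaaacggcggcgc

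Promoter sequence was matched for 7 of the 9 genes, the 6 above and CUL2. The 6 windows printed above held G and C at 73.3% for RBX1, 80.0% for EGLN1, 65.0% for EGLN3, 76.3% for ELOB and 76.3% for EGLN2, against a median of 58.7% over 35116 RefSeq promoters of the same length. HIF1AN, at 58.0%, was the only one of the 6 under that median. The 3 windows at the listed starts of CUL2 held 71.3% and 53.0% for the starts at 35090341 and 35090614 and 44.0% for the start at 35074283. EGLN2 has a further listed start at 40799522, not printed, whose window held 79.3%. In the 6 printed windows the ratio of observed to expected CpG ranged between 0.798 in HIF1AN and 1.01 in ELOB and EGLN2, and the median over all promoters was 0.579. In the CUL2 windows it was 0.892 and 0.718 for the upper starts and 0 for the start at 35074283, which held no CpG. ELOB and EGLN2, unlisted in ACSS2i libraries, lay within the range of RBX1 and EGLN1 in G and C, while EGLN3 and HIF1AN, listed in ACSS2i replicate 2 alone of the treated libraries, lay below those 4 genes. The medians over all genes were 65.0% for genes in the DMSO lists alone and 65.7% for genes in all 4 lists.

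A hypoxia response core (ACGTG or GCGTG, both strands) was present in 4 of 7 genes, RBX1, EGLN1, ELOB and EGLN2, and 48.4% of all promoters hold one. EGLN3 and HIF1AN, listed in ACSS2i replicate 2 alone of the treated libraries, had none in these letters. The palindrome CACGTG, which contains ACGTG on both strands and therefore counts as 2 cores, was present in RBX1 and EGLN2 and in 7.26% of all promoters. The word ATGGCGGC was present in ELOB, HIF1AN and RBX1 and in 2.996% of all promoters. Because it was chosen after these sequences were seen, its count is not read against that share. The GC-box word GGGCGG, searched on both strands, was found in 6 of 7 genes, all but HIF1AN, and in 45.0% of all promoters. The unprinted window of EGLN2, at the start 40799522, held no hypoxia response core and no CACGTG. A gene was counted if any of its windows held the word, whereas the shares are per promoter. These are matches of letters within 300 bases, and each of the 4 words was found in genes of more than 1 pattern.

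VHL, the substrate receptor, spans chromosome 3 from 10141778 to 10153667, and its gene-end region lies at 10141627 to 10142329, over the lower end. Its fold was 4.75 in ACSS2i replicate 2, with no peak in ACSS2i replicate 1, against 5.61 and 10.0 in DMSO replicates 1 and 2. The summit held 20 fragments in ACSS2i replicate 2, against 22 and 54 fragments in DMSO replicates 1 and 2. This was a peak of middling strength in ACSS2i replicate 2 and DMSO replicate 1 and a stronger one in DMSO replicate 2. In ACSS2i replicate 2, 49.1% of the peaks had a lower −log10 q, against 48.6% and 76.2% in DMSO replicates 1 and 2. DMSO replicate 1 alone listed a further, weak peak inside the gene at 10142575 to 10142859, with a fold of 3.01.

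ELOB, the ubiquitin-like Elongin B, lies on the minus strand of chromosome 16 from 2771414 to 2777280 and starts at the upper end. Neither ACSS2i list had a peak at its start, and the DMSO lists had one with folds of 3.87 and 5.83 in replicates 1 and 2. Their percentiles were 21.3 and 50.3, so these were among the weaker DMSO peaks of the 9 genes. The region covers 2776802 to 2777955 and takes in the whole promoter window printed above.

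ELOC, Elongin C, which bridges VHL to the cullin, had the strongest gene-end peak of the 9 genes in each of the 4 lists, by −log10 q. Its region covers chromosome 8 from 73971204 to 73972966, over the upper end of the span 73945119 to 73972287. Its folds were 8.79 and 9.80 in ACSS2i replicates 1 and 2, against 9.91 and 10.1 in DMSO replicates 1 and 2. The ACSS2i and DMSO values did not overlap but differed little, and the peak ranked 52 and 10 from the top of the ACSS2i lists, against 19 and 219 in the DMSO lists. On another scale the libraries lay further apart: the summit held 27.6 and 32.6 times the genome background in ACSS2i libraries, against 59.8 and 112 times in DMSO libraries. The local background around the summit differed in the same direction, at 2.76 and 3.04 times the genome background in ACSS2i libraries and 5.59 and 10.6 times in DMSO libraries.

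**Figure D2:**
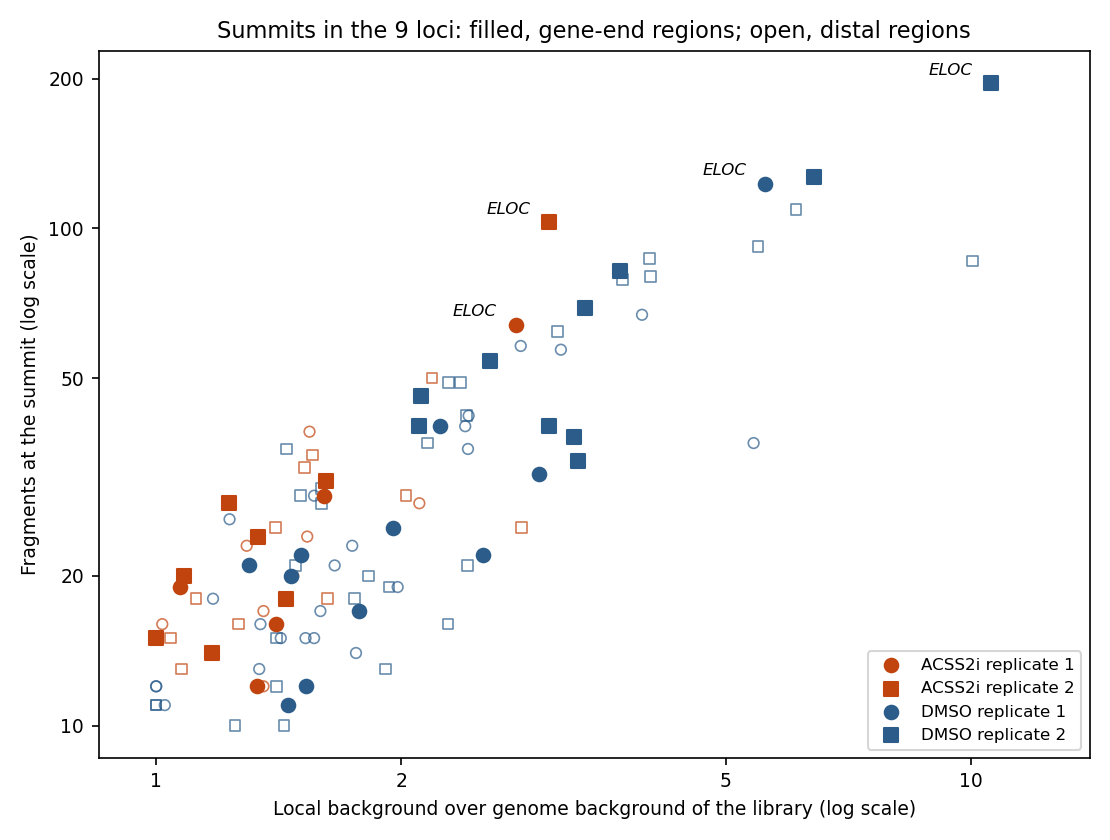
Fragments at the summit (vertical, log scale) against the local background over the genome background of the same library (horizontal, log scale) for the regions in the 9 loci. Each region is drawn by its strongest peak in each library. Filled points are gene-end regions and open points distal regions. The ELOC summits have the most fragments within each library, and the DMSO summits of ELOC lie to the right of the ACSS2i ones, at 5.59 and 10.6 against 2.76 and 3.04.

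CUL2, the cullin scaffold, spans chromosome 10 from 35008551 to 35127006 on the minus strand, and its upper end adjoins the start of CREM. The region at the upper end, 35126615 to 35127928, holds the listed CREM start, and its folds were 3.19 and 4.79 in ACSS2i replicates 1 and 2, against 5.17 and 11.1 in DMSO replicates 1 and 2. At the lower end, the region 35007732 to 35008283 lies 268 bp outside the span and had folds of 3.998 and 3.41 in ACSS2i libraries, against 3.72 and 5.17 in DMSO libraries. The upper end was therefore lower in both ACSS2i lists than in both DMSO lists, while the values at the lower end overlapped. RefSeq lists 3 starts for CUL2 itself, all inside the span. Those at 35090341 and 35090614 lie in the region 35089733 to 35090870, whose nearest edge is 36.1 kb inside the upper end. There the fold was 4.35 in ACSS2i replicate 1, with no peak in ACSS2i replicate 2, against 4.99 and 7.97 in DMSO replicates 1 and 2. At the remaining listed start, 35074283, the only peak was that of DMSO replicate 1, at 35074325 to 35074612 with a fold of 4.25. CUL2 thus counts among the 4 genes in all lists through its span ends and not through its own starts.

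RBX1, the RING subunit, spans chromosome 22 from 40951378 to 40973309 on the plus strand, and the region at its start, 40950844 to 40952206, was the only region in its locus. Its folds were 5.75 and 5.94 in ACSS2i replicates 1 and 2, against 7.33 and 10.2 in DMSO replicates 1 and 2. The groups did not overlap, and the percentiles kept the same order, at 65.0 and 75.2 in ACSS2i lists and 81.8 and 83.6 in DMSO lists. The summits lay 189 bp after the start in ACSS2i replicate 1 and 209 bp after it in DMSO replicate 1, and before the start in both other libraries, so the position of the summit did not follow the treatment.

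EGLN1, or PHD2, the main HIF prolyl hydroxylase under normal oxygen, spans chromosome 1 from 231363756 to 231422287 on the minus strand. The region at its start, 231420683 to 231422862, had folds of 6.36 and 5.24 in ACSS2i replicates 1 and 2, against 4.66 and 10.5 in DMSO replicates 1 and 2. DMSO replicate 2 was high, and DMSO replicate 1 lay below both ACSS2i libraries, so the groups overlapped. The summits held 29 and 31 fragments in ACSS2i libraries, against 32 and 127 in DMSO libraries, and the percentiles were 84.8 and 73.2 in ACSS2i lists, against 53.7 and 96.8 in DMSO lists. The peak of DMSO replicate 2 was also wide, 1930 bp with 5 summits, against 515 and 724 bp in ACSS2i replicates 1 and 2 and 947 bp in DMSO replicate 1. DMSO replicate 1 listed a separate peak of 515 bp further into the gene, at 231420683 to 231421197 with a fold of 3.93, which the wide peak of DMSO replicate 2 overlaps.

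EGLN2, or PHD1, spans chromosome 19 from 40799191 to 40808434 on the plus strand, and neither ACSS2i list had a peak at its start. The DMSO lists had one in the region 40798513 to 40799698, with folds of 3.14 and 6.50 in replicates 1 and 2. The peak of DMSO replicate 1 had a −log10 q of 2.42, where the lowest value deposited in any list was 2.00, and a percentile of 4.23. It was the weakest DMSO gene-end peak by which any of the 9 genes was counted.

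EGLN3, or PHD3, a prolyl hydroxylase whose gene is itself induced by HIF, spans chromosome 14 from 33924227 to 33951074 on the minus strand. At its start, in the region 33950450 to 33951249, the fold was 3.84 in ACSS2i replicate 2, with no peak in ACSS2i replicate 1, against 5.98 and 8.77 in DMSO replicates 1 and 2. The only ACSS2i value was below both DMSO values. The 3 summits lay within 38 bp of the listed start.

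HIF1AN, the asparaginyl hydroxylase FIH, spans chromosome 10 from 100535943 to 100559998 on the plus strand. In the region at its start, 100535528 to 100536170, the fold was 3.19 in ACSS2i replicate 2, with no peak in ACSS2i replicate 1, against 5.23 and 10.0 in DMSO replicates 1 and 2. The ACSS2i peak was weak within its list, at a percentile of 7.72, where the DMSO peaks were at 41.6 and 71.5.

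Whether a gene-end peak was listed in ACSS2i libraries went with its strength in DMSO libraries. The 10468 genes of that background were split into 4 equal classes by the lower of their DMSO percentiles. In the weakest class, up to 43.0, 54.5% of 2617 genes had no gene-end peak in either ACSS2i list, and the shares were 17.3%, 3.13% and 0.611% in the classes above it. The shares listed in both ACSS2i libraries were 11.7%, 45.1%, 78.9% and 96.4%, weakest class first. ELOB at 21.3, EGLN2 at 4.23 and HIF1AN at 41.6 fell in the weakest class. VHL at 48.6, CUL2 at 49.3, EGLN3 at 50.1 and EGLN1 at 53.7 fell in the next class, RBX1 at 81.8 in the one above, and ELOC at 99.6 in the strongest, where its rank was 34 of 10468. Both genes unlisted in the ACSS2i libraries were thus in the weakest class, and both genes of the upper classes, RBX1 and ELOC, were listed in all libraries.

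**Figure D3:**
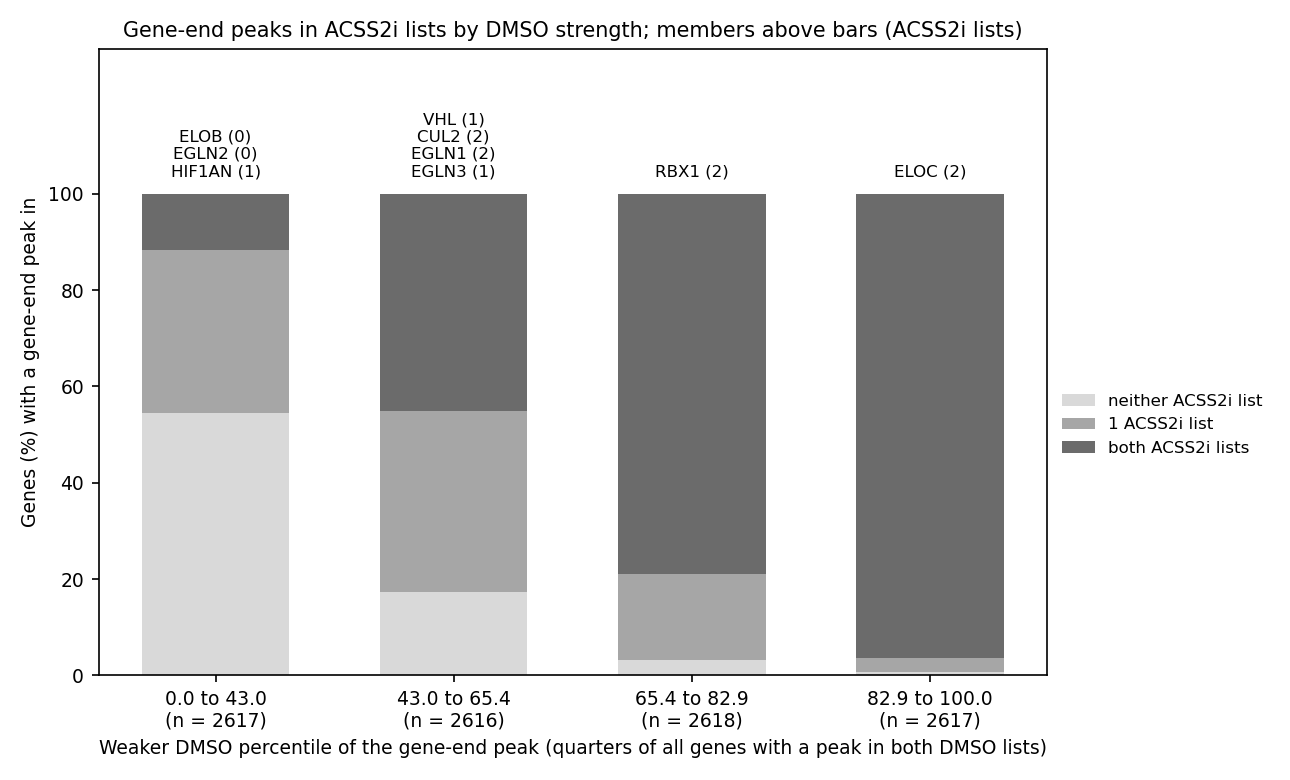
Share of genes (%) with a gene-end peak in neither, 1 or both ACSS2i lists, for all 10468 genes found in both DMSO lists, split into 4 equal classes by the lower DMSO percentile; gene names stand above their class with the number of ACSS2i lists that hold them. The share in neither list is 54.5% in the weakest class, which holds ELOB and EGLN2, and 0.611% in the strongest, which holds ELOC.

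The lists were also shortened to the 16400 strongest peaks each, the length of the shortest. ELOC, RBX1 and EGLN1 then had a gene-end peak in all 4 lists. None of the other genes described here was in both shortened DMSO lists, so the count in the DMSO lists alone was 0 of 3. The background was 5.27% of the 6259 genes in both shortened DMSO lists. With only 3 genes left, no comparison is drawn from this count. CUL2 was in both ACSS2i lists and in DMSO replicate 2, VHL in ACSS2i replicate 2 and DMSO replicate 2, and HIF1AN in DMSO replicate 2. ELOB, EGLN2 and EGLN3 dropped out of every list, so ELOB and EGLN2 did not differ between groups in presence at equal length. With only peaks of −log10 q 5 or more, the genes in the DMSO lists alone were EGLN3 and HIF1AN, 2 of 7, where the background was 29.8%.

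Among the 42 regions, 12 were present in all 4 lists, 5 at gene ends and 7 distal, and these allow fold to be compared without missing values. Both ACSS2i folds lay below both DMSO folds in 8 of the 12 regions, where the background was 82.2% of 13306 regions, and in 3 of the 5 gene-end regions, where it was 83.9%. Both lay above in 0 of 12, with a background of 0.383%, and in 0 of the 5 gene-end regions, with a background of 0.267%. The 4 regions whose folds overlapped were the start of EGLN1, the lower end of CUL2, the IRAK2 start in the VHL locus and the RAB4B start in the EGLN2 locus. Summit fragments over the genome background were lower in both ACSS2i libraries than in both DMSO libraries in 12 of 12 regions, where the background was 99.2%. The two-sided exact permutation p of each region on that scale was 0.333, the smallest that 2 against 2 libraries allow, and its Benjamini-Hochberg adjusted value over all 13306 regions was 0.336. The count of 8 by fold lay under the share of all regions, and the count of 12 by summit fragments was near it.

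The ratio of the ACSS2i mean fold to the DMSO mean fold had a median of 0.61 over all 13306 regions in 4 lists. It was 0.929 at the ELOC start, above 96.3% of those regions, 0.833 at the lower end of CUL2, 0.767 at EGLN1 and 0.668 at RBX1. At the upper end of CUL2 it was 0.491, above 15.3% of the regions. By fold, gene ends of the same pathway thus lay on both sides of the median. ELOC was highest and the end shared by CUL2 and CREM lowest. Fold is relative to the local background, and this order applies to fold alone. Over the genome background, the ELOC summit held 27.6 and 32.6 times in ACSS2i libraries, against 59.8 and 112 times in DMSO libraries. The summit at the lower end of CUL2 held 6.91 and 5.69 times, against 10.7 and 19.5 times.

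Away from the gene ends, the 9 loci held 31 regions, of which 13 lay inside the span of the gene and 6 at an end of another protein-coding gene. They were present in 8 and 13 cases in the ACSS2i lists, against 23 and 28 in the DMSO lists, and 0 were in ACSS2i lists alone. These counts stand beside 16400 and 22044 peaks in the whole ACSS2i lists and 34696 and 50294 in the whole DMSO lists. The same counts over all distal regions are not given here, so they are not read as a trait of the loci. Of the 20 in both DMSO lists, 8 were in neither ACSS2i list, 5 in one and 7 in both. The 14 of these that lay away from all gene ends held 6 in neither ACSS2i list, where the background was 38.1% of 16111 regions, and 4 in both, where it was 37.5%. The 6 at an end of another gene held 2 in neither, beside 20.7% of 9396 regions, and 3 in both, beside 55.7%. With counts this small, the loci did not stand apart from regions elsewhere. The loci held 0.0793% and 0.0953% of the peaks in ACSS2i lists, against 0.101% and 0.0756% in DMSO lists, and the groups overlapped.

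**Figure D4:**
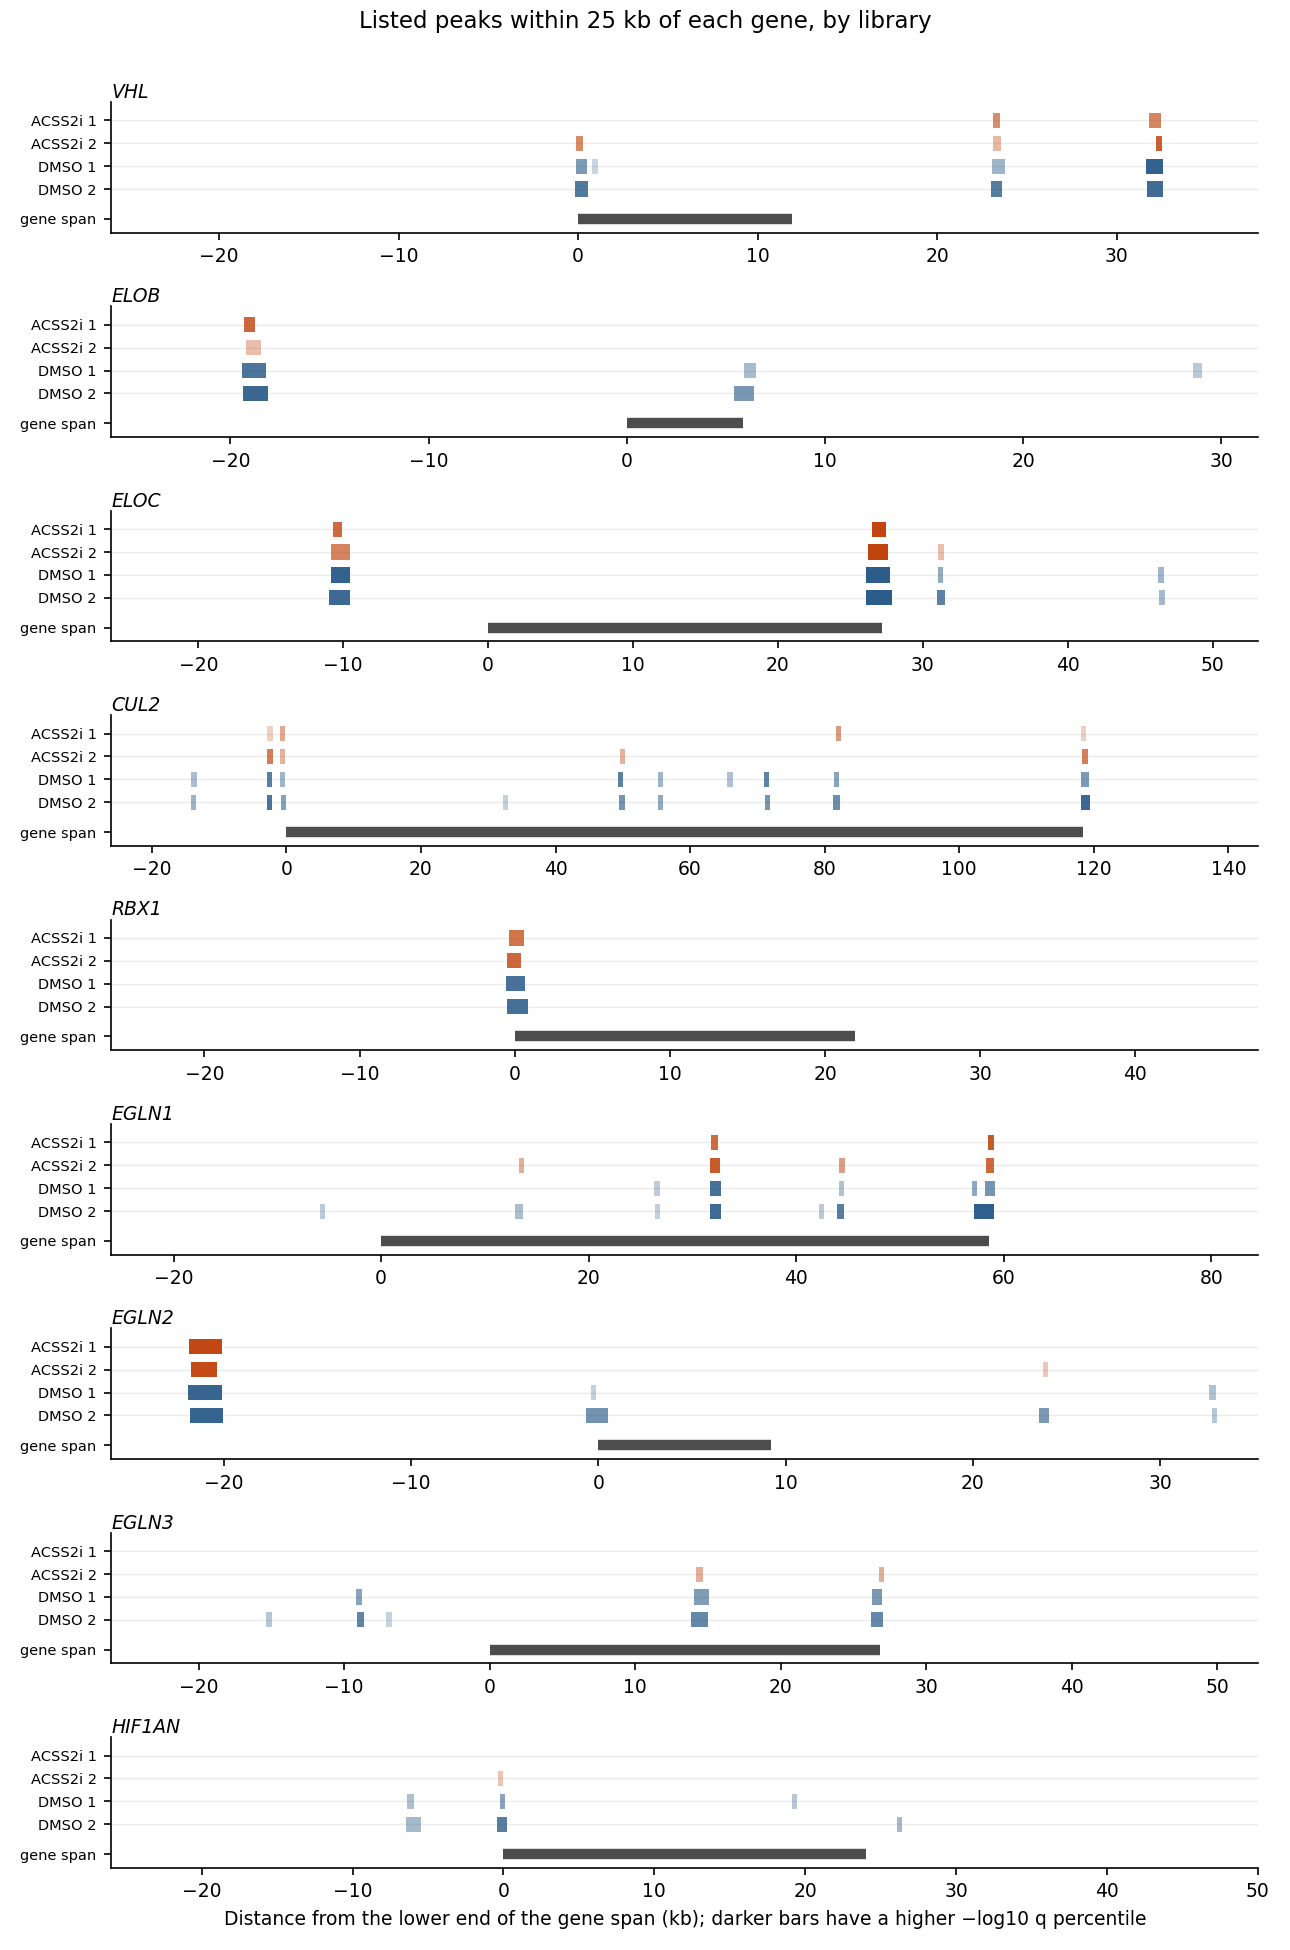
Peaks in the 9 loci by library, placed by distance in kb from the gene's lower end, with the gene span drawn as a bar; ACSS2i rows stand above DMSO rows in each locus, darker bars have a higher percentile, and narrow peaks are widened to be visible. RBX1 has 1 region and CUL2 has the most distal regions, 8.

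The ligase loci shared several of their distal regions with neighbouring genes. Beside VHL, the region at 10164777 to 10165563 over the start of IRAK2 had folds of 5.06 and 3.41 in ACSS2i libraries, against 4.52 and 10.0 in DMSO libraries. A second one inside IRAK2, at 10173427 to 10174352, had folds of 4.76 and 5.85 in ACSS2i libraries, against 8.72 and 10.0 in DMSO libraries. Only the second had groups that did not overlap. In the ELOB locus, the region 2752003 to 2753333 over the starts of SRRM2 and SRRM2-AS1 had folds of 6.01 and 3.10 in ACSS2i libraries, against 6.91 and 10.9 in DMSO libraries. This neighbouring start was present in both ACSS2i lists where the start of ELOB itself was in none.

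In the ELOC locus, a region between gene spans at 73934167 to 73935622, 9.50 kb below ELOC, had folds of 4.94 and 4.05 in ACSS2i libraries, against 7.45 and 8.79 in DMSO libraries. The region 73976111 to 73976649 overlaps TMEM70, within 1000 bp of an end of that gene. Its fold was 2.63 in ACSS2i replicate 2 alone of the treated libraries, against 3.13 and 4.68 in DMSO libraries. The region 73991383 to 73991795 overlaps LY96, also within 1000 bp of an end of that gene. It was absent in both ACSS2i lists, against folds of 3.94 and 4.22 in DMSO lists. Of the 3, the LY96 peak had the lowest percentiles in the DMSO lists, at 25.6 and 23.1.

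CUL2 held 8 distal regions, 6 of them inside its span. The region 35005901 to 35006310, 2.24 kb beyond the lower end, had folds of 3.14 and 4.79 in ACSS2i libraries, against 6.20 and 9.79 in DMSO libraries. Inside the gene, 35057892 to 35058935 had a fold of 3.73 in ACSS2i replicate 2 alone of the treated libraries, against 7.12 and 8.18 in DMSO libraries. The region 35079682 to 35080328 was in neither ACSS2i list, against folds of 7.64 and 8.27 in DMSO lists. It was the strongest distal region of the 9 loci, by the lower of its DMSO percentiles, 68.8 and 53.4, that neither ACSS2i list held.

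Among the hydroxylases, EGLN1 held a region inside the gene at 231395431 to 231396525, 25.8 kb from the start, that was in all 4 lists. Its folds were 5.49 and 6.08 in ACSS2i libraries, against 7.19 and 10.6 in DMSO libraries, and the groups did not overlap. Closer to the start, 231407641 to 231408378 had a fold of 4.18 in ACSS2i replicate 2 alone of the treated libraries, against 3.79 and 9.74 in DMSO libraries. The region 231376661 to 231377476 had folds of 3.84 in ACSS2i replicate 2 and 4.63 in DMSO replicate 2 and was in neither list numbered 1. It was the weakest of the 3, with percentiles of 23.1 in ACSS2i replicate 2 and 19.3 in DMSO replicate 2.

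In the EGLN2 locus, the strongest region was not at EGLN2 but at 40777302 to 40779130, over the starts of RAB4B and of the read-through gene RAB4B-EGLN2, whose span also takes in the EGLN2 start. Its folds were 8.75 and 6.46 in ACSS2i libraries, against 7.77 and 9.43 in DMSO libraries, and its percentiles were 92.6 or more in all 4 lists. The start of the read-through gene was therefore listed in both ACSS2i libraries and the start of EGLN2 in neither. The region 40822731 to 40823241 inside the pseudogene CYP2F2P had folds of 3.18 in ACSS2i replicate 2 and 7.65 in DMSO replicate 2, and the region 40831777 to 40832202 had 4.25 and 4.37 in the DMSO lists alone.

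EGLN3 held a region inside the gene at 33938041 to 33939318, 11.8 kb from the start, with a fold of 3.84 in ACSS2i replicate 2 alone of the treated libraries, against 5.24 and 8.27 in DMSO libraries. This is the pattern of its start. Beyond its lower end, 33915102 to 33915600 was in neither ACSS2i list, against folds of 5.56 and 10.5 in DMSO lists. HIF1AN had 1 distal region in more than a single list, at 100529464 to 100530462 over the start of NDUFB8, a subunit of respiratory complex I, with folds of 3.87 and 4.68 in the DMSO lists alone.

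The rest of the pathway was counted over 43 further genes of HIF alpha hydroxylation and turnover, among them other cullins, neddylation enzymes, deubiquitinases and the HIF alpha genes. A gene-end peak was present for 22 and 33 of them in the ACSS2i lists, against 37 and 38 in the DMSO lists. Of the 37 in both DMSO lists, 22 were in all 4 lists, 10 in ACSS2i replicate 2 alone of the ACSS2i lists and 5 in neither ACSS2i list, beside the 58%, 19.2% and 18.9% given above. The 10 included HIF1A and EPAS1, which encode HIF-1α and HIF-2α, and NEDD8, the modifier that activates cullins. The 5 were UBA3, the catalytic subunit of the NEDD8-activating enzyme, with folds of 2.89 and 5.57 in DMSO lists, CDC34, a ubiquitin-conjugating enzyme, with 3.26 and 6.42, FKBP8, a prolyl isomerase that binds PHD2, with 4.19 and 7.07, STUB1, a chaperone-linked ligase, with 3.36 and 4.09, and COMMD1, a regulator of cullin ligases, with 5.39 and 6.95. Among the genes found in both DMSO lists, this split was near that of all such genes; the counts per list were above the shares of all protein-coding genes given above, as they were for the 9 genes.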

How the data were processed

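The data are ATAC-seq peaks of 786-O cells, 4 libraries in 2 groups of 2 set by the treatment label. Separate cultures are not stated for the replicates, whose spread may be technical. Per the labels' protocols, previously frozen cells were thawed, treated with DNase I, and their nuclei exposed to Tn5 for 30 min. The submitters' processing notes name the build hg38, the peak caller MACS2 2.1.2, the aligner Bowtie2, Trimmomatic 0.38, Picard 2.18.26 and SAMtools 1.9. Not given in the sources used here are the caller's options, any Tn5 shift, the handling of duplicates, the filter applied to the lists and the read totals.

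The authors' lists were called per library. The deposited score restates the q-value on another scale and entered no result. The deposited fold sets the summit against the local background of that library, with a constant added to both, so it is lower than the plain ratio. The deposited −log10 p and −log10 q are the caller's values for each peak. All 3 are the authors' values and served to describe and rank peaks of the same list; summit offsets in bp came from the deposited lists. Every −log10 q was at least 2.

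Rows with the same interval made 1 peak, which took its strongest summit's values. Peaks of the 4 lists that overlapped by 1 bp or more were merged into regions. Percentile is the share of a list's peaks with a lower −log10 q. Fold and −log10 p were solved for a whole-number summit count and a Poisson background. Fold was taken as the count plus 1 over the background plus 1. The tolerance was 0.001 in −log10 p, met by 99.9878% or more of peaks in each list. The lowest background of a list was taken as its genome background. Gene spans, listed starts and promoters came from RefSeq tables of GRCh38.p14; exon and intron classes were not used here. VHL and ELOC were matched by span alone. The counts have no p-value, since 2 against 2 libraries allow no two-sided exact permutation p below 0.333, and are set beside the same counts over all genes or regions. Python 3.11.15, pandas 2.3.3 and scipy 1.17.1 were used, and the procedures were tested on simulated data.

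The 9 genes and the lists of other genes were chosen with earlier results of these data known. All 9 genes are named. For each, up to 3 distal regions present in 2 or more lists are given, those with the highest percentile in any list; the region at the starts of CUL2 was added after its values were seen. Alternatives were the gene-end window, listed starts alone, a stricter q, equal list length, each summit as a peak, a narrower flank, a stricter overlap, the replicate block and leaving out each replicate.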

Additional observations from a re-analysis of the deposited data

How the results depend on the processing

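The count of 4 genes with a gene-end peak in all lists became 2 of 7 (RBX1 and EGLN1) when only listed transcript starts were used, and it ranged between 4 and 7 when a replicate was left out. The count of 2 genes in the DMSO lists alone became 0 with lists of equal length, where the background was 5.27%. Only 3 of the genes were then left in both DMSO lists. It was 5 without ACSS2i replicate 2, where the background was 38.1%. It stayed at 2 when any other replicate was left out, where the background ranged between 19.4% and 28.5%. At −log10 q of 5 or more that count was again 2, but of 7 genes and made of EGLN3 and HIF1AN, where the background was 29.8%. The count of 8 of 20 distal regions in the DMSO lists alone became 0 of 6 with lists of equal length and 5 of 13 with a flank of 10 kb. It ranged between 9 and 14 when a replicate was left out, with 14 of 28 regions without DMSO replicate 1. Under these settings, shares over all regions, and over all genes for the count of 4, are not given here. Whether the loci moved more than the lists cannot be read from these counts. The share of peaks in the loci differed by -0.00095 percentage points between ACSS2i and DMSO lists, and by -0.0136 to 0.0117 when a replicate was left out. With the replicate block this difference was also -0.00095 percentage points, at -0.0216 and 0.0197 in the pairs numbered 1 and 2. The labels do not say what the numbers share, and same-numbered libraries had a correlation of 0.166 in their deviations over 13306 regions, so they were not taken as pairs. The cause of these changes was not tested beyond the construction of each alternative, which uses fewer peaks, genes or libraries. Absence has a limit: a gene with no listed peak may lie just under the threshold of the caller. Read totals are not given, so the part of depth was not tested. The genome background of 1.75 to 3.16 fragments is the lowest background of each list, and many local backgrounds in the loci were higher.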
